A study of Mus musculus with 10 samples.

Results

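The genes described here are 7 genes of the RAS and MAP kinase pathway: Nras, Braf, Map2k1, Map2k2, Mapk3, Dusp6 and Nf1. They were chosen by name, and every counted region that lay in the gene span or within 10 kb of either gene end (mm10) was taken with its gene. This gave 59 regions of 151133 in all, for 7 of 21883 protein-coding genes. The cells were RN2 cells, a C57BL/6 mouse leukaemia line that carries MLL-AF9 and NRASG12D, transduced with a retrovirus for murine IKZF2 and RFP, sorted, and kept in culture for 2 weeks. IKZF2, also known as Helios, belongs to the Ikaros family of DNA-binding zinc finger proteins, and its binding was assayed by CUT&RUN, in which an antibody brings a protein A-coupled nuclease to its target and the DNA fragments it frees are sequenced. The 6 samples analysed were incubated with anti-IKZF2 antibody and form 3 libraries with 2 technical replicates each. A further 4 samples, with control rabbit antibody, were not analysed here, so no background level from the same cells stands beside any value, and all cells overexpressed IKZF2. How the mutant NRAS was introduced is not stated in the labels. Whether the libraries came from separate cultures is not stated, so the spread between them may be technical.

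RAS proteins are small GTPases that switch on at activated receptors. Active RAS recruits RAF kinases, RAF phosphorylates the MEK kinases, and MEK phosphorylates the ERK kinases, which alter transcription. Neurofibromin turns RAS off by speeding GTP hydrolysis, and DUSP6 dephosphorylates ERK. Mutations that hold the pathway on are common in myeloid leukaemia.

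Technical replicates were summed per library, which gave 1675237, 1570251 and 2081455 reads in regions for libraries 1, 2 and 3. A region's level is its count divided by the library's total reads in regions, in the usual CPM unit, and by the region's width in kb, with mean ± SD over the 3 libraries. Per kb, a narrow region can rank high on few reads, so raw reads are given too. Most member regions were thinly covered and narrow. They held 21 to 120 reads over all 3 libraries, were 90 to 377 bp wide (median 108), and had a median level of 51.3 CPM per kb, against 49.5 over all regions. Of the 59, 5 were 200 bp or wider, as were 8.86% of all regions. Regions per 100 kb of gene and flanks numbered from 4.91 at Braf to 19.1 at Mapk3, with a median of 7.80 over all protein-coding genes. Among all genes, Braf stood at percentile 33.4 and Mapk3 at 94.2. The members pooled had 9.65, with Nf1 giving 262020 of the 611150 bp. This pooled figure is not comparable with a median over genes.

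A region was called a gene-end region if it lay within 1 kb of either end of the gene span, a body region if it lay inside the span and farther from both ends, and a flank region otherwise. There were 7 gene-end, 39 body and 13 flank regions. Gene-end regions were found at 6 of the 7 genes, and at the 5 of these with a listed strand it lay at the start side of the span. The sequences at 4 of these starts are shown because the counted region reaches into them: each line gives the 250 bases before the listed start and the first 30 bases after it, 5′ to 3′ on the gene's strand, with the bases of the counted region in capitals (RefSeq, GRCm38.p6, which has the coordinates of mm10). The edges of the capitals may be off by 1 base, since the files do not say whether starts count from 0 or from 1. The windows are chr3:103058035-103058314, plus strand (Nras), chr9:64253576-64253855, minus strand (Map2k1), chr10:99262981-99263260, plus strand (Dusp6) and chr11:79339642-79339921, plus strand (Nf1).
Nras: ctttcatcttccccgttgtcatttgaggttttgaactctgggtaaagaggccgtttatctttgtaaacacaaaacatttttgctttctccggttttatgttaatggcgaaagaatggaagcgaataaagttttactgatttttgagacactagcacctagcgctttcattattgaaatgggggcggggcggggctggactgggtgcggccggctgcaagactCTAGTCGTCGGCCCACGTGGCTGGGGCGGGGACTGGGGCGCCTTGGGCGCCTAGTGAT
Map2k1: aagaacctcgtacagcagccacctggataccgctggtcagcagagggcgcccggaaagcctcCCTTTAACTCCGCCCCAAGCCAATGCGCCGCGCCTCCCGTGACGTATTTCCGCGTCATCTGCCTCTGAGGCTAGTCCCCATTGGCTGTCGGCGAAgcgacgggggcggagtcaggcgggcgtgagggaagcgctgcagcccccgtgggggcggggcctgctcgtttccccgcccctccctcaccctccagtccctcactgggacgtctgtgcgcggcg
Dusp6: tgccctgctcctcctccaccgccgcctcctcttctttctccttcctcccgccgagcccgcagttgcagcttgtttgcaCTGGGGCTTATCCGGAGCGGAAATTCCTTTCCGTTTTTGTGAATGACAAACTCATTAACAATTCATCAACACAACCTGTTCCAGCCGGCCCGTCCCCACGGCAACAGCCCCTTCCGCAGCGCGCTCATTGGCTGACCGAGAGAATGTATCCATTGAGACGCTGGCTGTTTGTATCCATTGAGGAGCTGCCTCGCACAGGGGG
Nf1: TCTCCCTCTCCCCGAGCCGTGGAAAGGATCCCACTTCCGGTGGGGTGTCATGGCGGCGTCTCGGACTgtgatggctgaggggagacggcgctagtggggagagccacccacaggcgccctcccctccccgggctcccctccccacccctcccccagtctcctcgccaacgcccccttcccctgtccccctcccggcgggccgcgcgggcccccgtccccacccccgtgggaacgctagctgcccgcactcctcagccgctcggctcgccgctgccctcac

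In these windows the counted region covered 58 printed bases at Nras, 95 at Map2k1, 202 at Dusp6 and 67 at Nf1. The Nras region runs across the start site, the Map2k1 region lies wholly upstream of it, and the Dusp6 region reaches across the start from well upstream. At Nf1 the region overlaps the start of the gene span and ends 184 bp before the listed start of the promoter table. The letters GGGAA, the core bound by Ikaros family proteins, were searched on both strands of the 300-base windows, which reach 50 bases past the start. They were present in 4 of the 6 member windows in the RefSeq promoter table (Nras, Map2k1, Map2k2 and Nf1) and in 63.0% of the 21262 windows of protein-coding genes. The longer TGGGAA, which overlaps it, was present in 1 member window, that of Nf1, and in 24.5% of all windows. The capital stretches of the 4 printed windows held 0 matches to GGGAA. No share over all genes was computed for stretches this short, and the 63.0% for whole windows does not serve as one. At Nras, Dusp6 and Nf1 the capitals are only part of the counted regions, which were 101, 219 and 152 bp wide. Bases of these regions outside the 300-base windows were not searched. The member windows were 52.3 to 75.7% G and C, with a median of 56.3% over all windows, and held 19 to 31 CpG dinucleotides, with a median of 13.

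**Figure D1:**
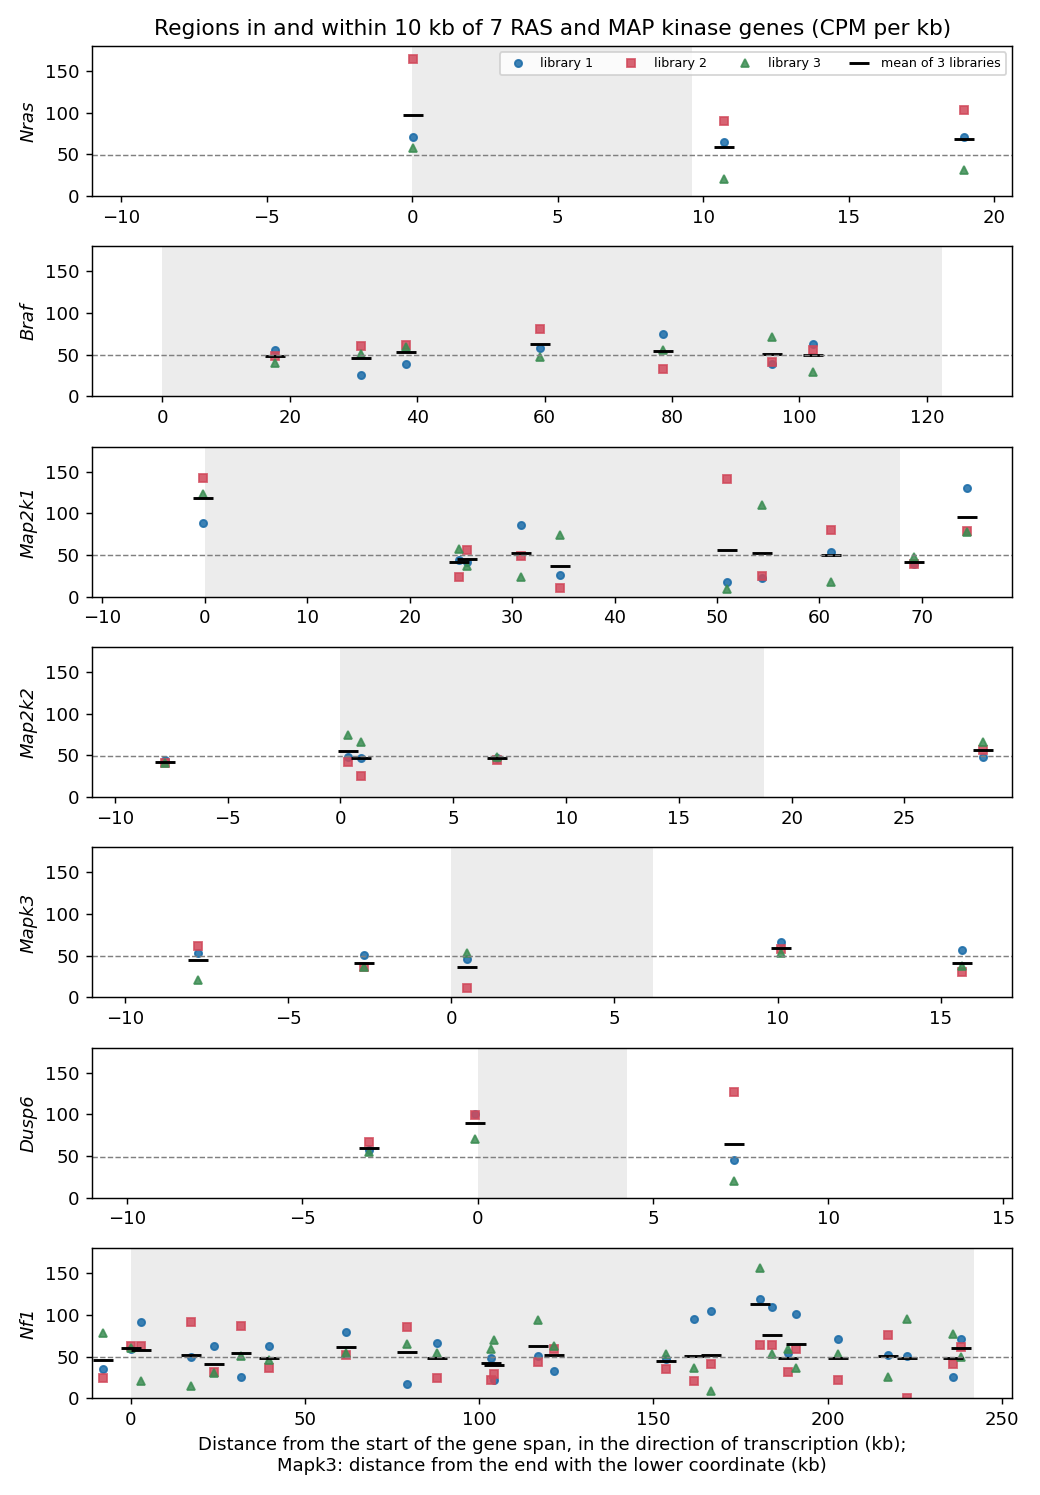
Level of each counted region in CPM per kb (vertical axes, 0 to 180) by distance in kb from the start of the gene span, with 1 panel per gene. Coloured symbols are the 3 libraries, black bars their mean, grey bands the gene span and the dashed line the median of all regions (49.5 CPM per kb). The highest member means lie at the starts of Map2k1 (118) and Nras (97.3) and inside Nf1 (113).

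Nras encodes the RAS family GTPase that these cells carry in mutant form. The gene spans chr3:103058285-103067914, and its highest region was one of 101 bp at its start, at chr3:103058257-103058358, which overlaps the start site. That region held 12, 26 and 12 reads in libraries 1, 2 and 3. Its levels were 70.9, 164 and 57.1 CPM per kb, a mean of 97.3 ± 58.1 (SD, n = 3). Library 2 stood far above the other libraries, and without it the mean was 64.0. No region lay deeper inside the Nras span. The other 2 regions lay past the gene, at 1019 bp (58.3 ± 35.5) and, within the span of Ampd1, at 9290 bp (68.1 ± 35.9). All 3 Nras regions were highest in library 2 and lowest in library 3. The reads do not separate a wild-type from a mutant copy of Nras.

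Braf encodes a RAF kinase and was the member without a counted region at either end. Its span, chr6:39603231-39725658, held 7 regions, and the one nearest to the listed start was 17361 bp away. Levels of the 7 ranged from 45.8 to 62.3 CPM per kb, on 23 to 35 reads each over all libraries. The highest, at chr6:39666331-39666433, had 58.5, 81.2 and 47.1 CPM per kb in libraries 1, 2 and 3 (62.3 ± 17.3, SD, n = 3). None of the 7 was in the top 10% of regions, by mean or in any library.

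Map2k1 and Map2k2 encode the MEK kinases MEK1 and MEK2, and they differed in where their highest regions lay. At Map2k1 (chr9:64185769-64253605) the highest was a region of 94 bp just upstream of the start, at chr9:64253699-64253793. It held 14, 21 and 24 reads in libraries 1, 2 and 3, or 88.9, 142 and 123 CPM per kb (118 ± 27.0, SD, n = 3). This was the highest mean among the 59 member regions. It was also the 1 member region in the top 10% of all regions in each of the 3 libraries, as 0.645% of all regions were. Its level was 117 CPM per kb in technical replicate 2, from 10, 20 and 18 reads in libraries 1, 2 and 3. In technical replicate 1 it was 125, from only 4, 1 and 6 reads. A flank region at chr9:64179198-64179303, at an end of Snapc5, stood at 95.8 ± 30.3. The 7 body regions stood at 36.8 to 55.8. The most uneven was at chr9:64202533-64202637, with 17.2, 141 and 9.24 CPM per kb in libraries 1, 2 and 3.

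Map2k2 (chr10:81105913-81124697) had 2 gene-end regions, both inside the gene and near its start. The first, at chr10:81106202-81106338, held 11, 9 and 21 reads, or 48.3, 42.1 and 74.2 CPM per kb (54.9 ± 17.0, SD, n = 3). The second, at chr10:81106797-81106898, stood at 46.4 ± 20.7 and the single body region at 46.3 ± 1.90. Its highest region was a flank region at chr10:81134347-81134471, at 56.8 ± 8.87 and 9650 bp past the gene. None of the 5 Map2k2 regions was in the top 10% of regions. Mapk3 encodes the ERK kinase ERK1. Its end region of 218 bp, at chr7:126759996-126760214 and 370 bp inside the lower-coordinate end of its span (chr7:126759626-126765816), held 17, 4 and 24 reads. Its levels of 46.5, 11.7 and 52.9 CPM per kb (37.0 ± 22.2, SD, n = 3) made it the second lowest of the 59 by mean, with library 2 well below the other libraries. The highest of its 4 flank regions was at chr7:126769678-126769777, 3862 bp from the other end of the gene and within Gdpd3, with 66.3, 57.9 and 53.4 CPM per kb (59.2 ± 6.57).

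Dusp6, an ERK phosphatase gene that ERK signalling itself induces, had 1 wide region over its start. The gene spans chr10:99263231-99267489 and the region chr10:99263059-99263278, 219 bp. It held 31, 28 and 30 reads in technical replicate 2 of libraries 1, 2 and 3 and 6, 6 and 2 in technical replicate 1. The summed levels were 101, 98.9 and 70.2 CPM per kb (90.0 ± 17.2, SD, n = 3). At 103 reads it had more reads than any other gene-end region of the members, and it was in the top 10% of regions in 2 of 3 libraries. A flank region at chr10:99270479-99270624 had 45.3, 127 and 19.9 CPM per kb, so its mean of 64.2 rested on library 2. The other flank region, 3036 bp before the start, stood at 59.5 ± 6.33.

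**Figure D2:**
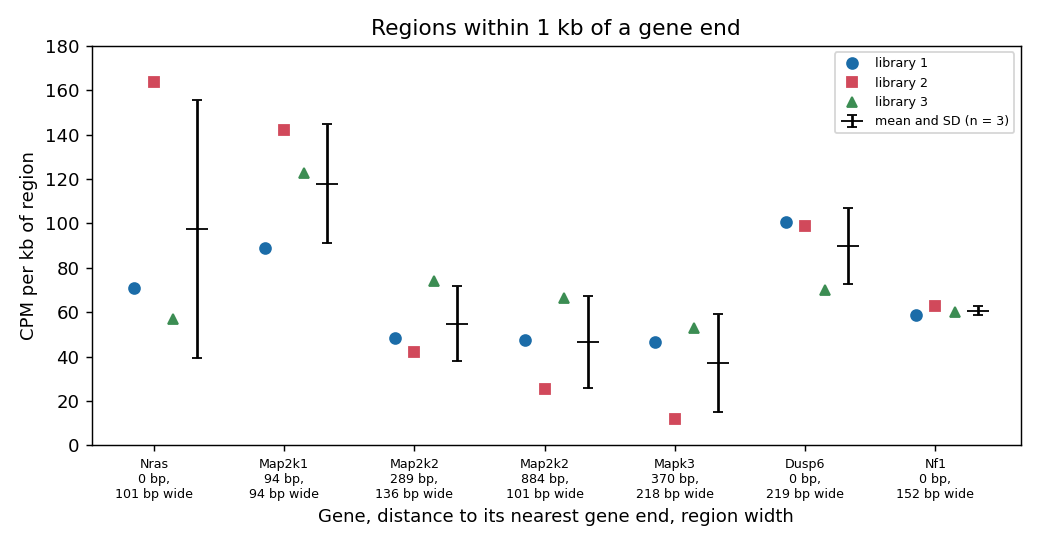
Level in CPM per kb (vertical axis) of the 7 regions within 1 kb of a gene end, by gene, with the distance to that end and the region's width on the horizontal axis. Symbols are the 3 libraries and bars their mean and SD (n = 3). Map2k1 (118) and Dusp6 (90.0) stand above Nf1 (60.6) in every library, while Nras is raised by library 2 (164).

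Nf1 encodes neurofibromin, the RAS GTPase-activating protein. With a span of 242020 bp (chr11:79339590-79581609) it held 26 of the 59 regions. The region over the start of its span, chr11:79339556-79339708, had the lowest coefficient of variation of the 59 (3.34%). It had 58.9, 62.8 and 60.1 CPM per kb in libraries 1, 2 and 3 (60.6 ± 2.03, SD, n = 3) from 15, 15 and 19 reads. Its level was 64.2 in technical replicate 2 and 42.7 in technical replicate 1. As the extreme of 59 regions, on few reads, the small SD does not show a precise level. Higher levels lay deep inside, where Evi2, Evi2a and Evi2b, genes named for a viral integration site, lie within the Nf1 span. The region at chr11:79520049-79520190, inside Evi2b, held 28, 14 and 46 reads, or 119, 63.2 and 157 CPM per kb (113 ± 47.0, SD, n = 3). The 4 regions within the Evi2 genes ranged from 48.5 to 113, and 3 of them were in the top 10% of regions (64.0 CPM per kb or more). For 2 of the 3 this rested on library 1, without which their means were 58.6 and 47.7. The other 20 body regions ranged from 40.2 to 62.5, and 0 of them were in the top 10%. This grouping was made after the values were seen and has no test. The region with most reads of any member was the widest, 377 bp at chr11:79577755-79578132, 3477 bp before the far end of Nf1. It held 45, 36 and 39 reads, and its level was 60.6 ± 10.8 CPM per kb.

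In the top 10% of all regions by mean level (64.0 CPM per kb or more; 10.0% of all regions) were 9 of the 59 member regions. They were 3 of the 7 gene-end regions, against 34.8% of the gene-end regions of all genes (1 of 7 and 5.15% in each of the 3 libraries), 3 of the 39 body regions, against 7.99%, and 3 of the 13 flank regions, against 9.91%. Within single libraries, 1 member region was in the top 10% in all 3 libraries, 2 in 2 libraries, 14 in 1 library and 42 in none. Besides the 2 Evi2 regions, the Nras region within Ampd1 and the Dusp6 region past the gene's end passed the edge of 64.0 by mean through library 2, without which they stood at 50.8 (Nras) and 32.6 (Dusp6). The Nras start region was in the top 10% within 1 library only. Without library 2 its mean fell from 97.3 to 64.0, at that edge. The median gene-end region of the members stood at 60.6 CPM per kb and that of all genes at 56.0, while body regions had medians of 50.5 and 49.1.

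Gene ends were then tested against gene bodies within each gene. Reads were summed over the gene-end and over the body regions of each gene and compared per kb in an edgeR quasi-likelihood fit that held the library as a blocking term, over all 5991 genes with both kinds of region and enough reads. Of these, 1.97% passed: 1.89% were higher at their ends (113 genes) and 0.0835% lower (5 genes) at an adjusted p under 0.05, and the median log2 ratio was 0.25. Map2k1, Map2k2 and Nf1 had both kinds of region, and 0 of these 3 passed, with 1 at an unadjusted p under 0.05, as were 750 of the 5991 genes. Map2k1 was denser at its start in 3 of 3 libraries, at 88.9, 142 and 123 CPM per kb, against 41.4, 54.7 and 45.5 in its body. The means were 118 ± 27.0 at the start and 47.2 ± 6.81 in the body (SD, n = 3), 2.50-fold apart. The log2 ratio was 1.31 ± 0.42 (SE; edgeR adjusted p = 0.0836). The adjusted p was 0.0432 without the library block and 0.0186 with DESeq2, so the call depends on the test. The log2 ratio was 0.44 with a window of 2 kb, which adds a region past the far end. Without 1 library the adjusted p was 0.316 to 0.378, and over all alternatives it ranged from 0.0186 to 0.9999. At Map2k2 the ends stood at 51.2 ± 18.2 and the body at 46.3 ± 1.90 (log2 ratio 0.11 ± 0.69, SE; edgeR adjusted p = 0.999). At Nf1 the end stood at 60.6 ± 2.03 and the body at 55.8 ± 8.35 (0.13 ± 0.37, SE; edgeR adjusted p = 0.999). For both, 2 of 3 libraries were higher at the ends. The other 4 members had regions of 1 kind at most and could not be tested.

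**Figure D3:**
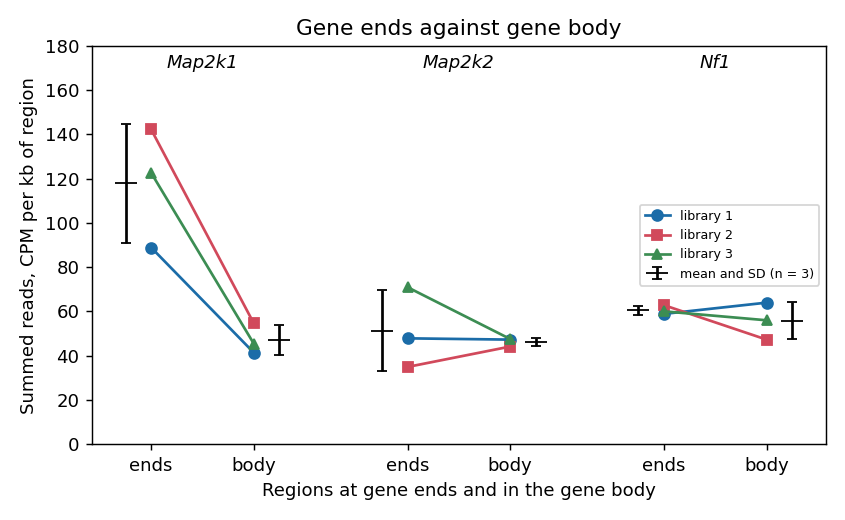
Reads per kb of region, in CPM, summed over gene-end and over body regions of the 3 genes with both kinds. Coloured lines join the values of a library and black bars are means with SD (n = 3). Map2k1 is lower in the body in every library, while Map2k2 and Nf1 have lines in both directions.

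For a comparison with other genes, a gene's value was the level of its highest region within 5 kb of either end. Of all genes, 16130 (73.7%) had such a region, with a median of 58.8 CPM per kb, and of the members 6 of 7, all but Braf. Map2k1 led with 118 ± 27.0, followed by Nras with 97.3 ± 58.1 and Dusp6 with 90.0 ± 17.2. Nf1 (60.6 ± 2.03), Mapk3 (59.2 ± 6.57) and Map2k2 (54.9 ± 17.0) followed. Neighbours in this order lay within the larger of their SDs, except Dusp6 and Nf1, whose library values did not overlap (lowest 70.2 in Dusp6, highest 62.8 in Nf1). The median of the 6 was 75.3. Map2k1 was the 1 member in the top 10% of genes (102 CPM per kb or more; 10.0% of genes with a value), at percentile 94.6. On regions of 200 bp or wider its value was 41.9, and with CPM summed over the window Nf1 was in the top 10% and Map2k1 was not. The Nf1 value was 113 over the whole span with 10 kb either side, and that of Mapk3 was 37.0 within 1 kb of its ends. None of the members was in the top 10% in each library, as 1.92% of genes were.

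**Figure D4:**
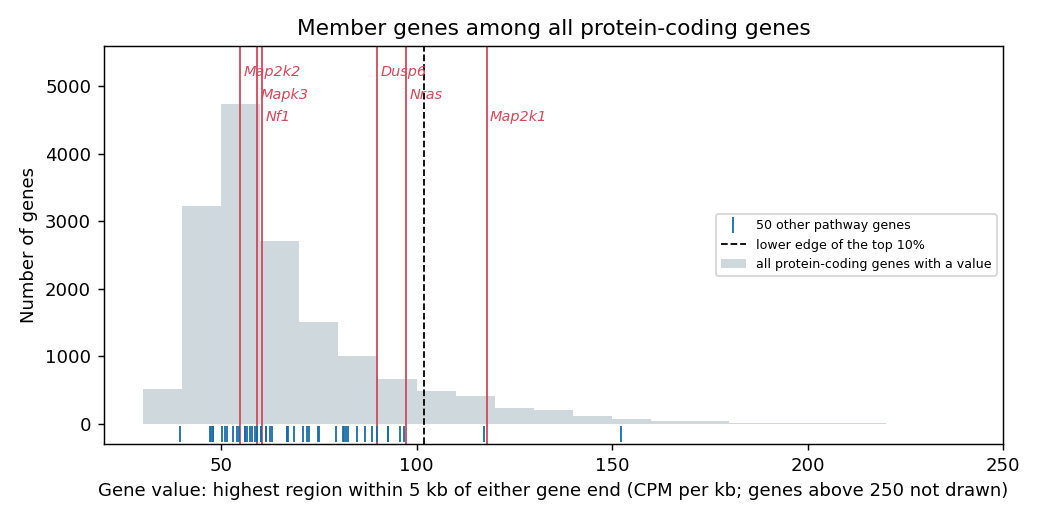
Number of protein-coding genes (vertical axis) by gene value, the highest level in CPM per kb within 5 kb of either gene end (horizontal axis). Red lines are the 6 members with a value, blue ticks the 50 other pathway genes and the dashed line the edge of the top 10% (102). Map2k1 lies past that edge and 5 of the 6 members past the all-gene median of 58.8.

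The rest of the pathway was covered by a list of 50 further genes, from receptors and adaptors to RAS regulators and ERK targets. All 50 had a region within 5 kb of an end. Their median value was 62.7 CPM per kb, against 58.8 for all genes, and 33 of 50 lay above that all-gene median. In the top 10% were 2 of 50. Ier3, an immediate early gene, had 203, 179 and 74.6 CPM per kb in libraries 1, 2 and 3 (152 ± 68.3, SD, n = 3), from a region 69 bp from a gene end. Cbl, which encodes a ubiquitin ligase for activated receptors, had 160, 108 and 84.6 (117 ± 38.5) from a region over a gene end. For both, library 1 was highest and library 3 lowest. Dusp5, a nuclear ERK phosphatase gene, followed at 96.9 ± 18.6 from 129 reads in a region over a gene end. Rasal3, which encodes a RAS GTPase-activating protein, was lowest at 39.6 ± 27.0 from 20 reads. Of the 27 list genes tested for ends against body 0 passed (1.97% of the 5991 genes did), with 1 at an unadjusted edgeR p under 0.05 (750 of the 5991 were). That gene was Cbl, at a log2 ratio of 1.39 ± 0.41 (SE; edgeR adjusted p = 0.0501).

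Technical replicates, which differed in depth, were compared at the member regions that could be tested. Technical replicate 2 held 1296355 to 1755015 reads in regions, and technical replicate 1 held 273896 to 326440. Of the 59 member regions 10 passed edgeR's low-count filter and were tested. Between technical replicates 0 of them passed, where 0.259% of 27452 tested regions did (0.138% higher and 0.120% lower in technical replicate 2). Of the 10, 1 was at an unadjusted p under 0.05, as were 1884 of the 27452. It was the wide one near the far end of Nf1. Technical replicate 2 held 39, 34 and 35 reads in libraries 1, 2 and 3, and technical replicate 1 held 6, 2 and 4. The log2 difference was 1.56 ± 0.63 (SE; edgeR adjusted p = 0.451) under TMM, where the median of all tested regions was 0.41. In CPM per kb the region stood at 65.9 in technical replicate 2 and 35.0 in technical replicate 1. Between libraries 0 of the 10 passed, where 0.0146% of the 27452 tested regions did. None of the 10 had an unadjusted edgeR p under 0.05, as 1193 of the 27452 had. Libraries were judged against the spread of technical replicates of unequal depth, so this does not show that the libraries agreed. The remaining member regions, that at the Nras start among them, did not pass the low-count filter and were not tested. Their summed reads alone did not decide this. The untested Nras start region had a total of 50 reads, but a tested Nf1 body region, at chr11:79493205-79493295, had only 22.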

How the data were processed

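Samples were grouped from their titles. The deposited tables hold raw read counts per region, for 1 shared set of regions, and the authors left these counts unscaled. The tools named, per the submitters' processing notes, include Bowtie2 2.3.3.1 and MACS2, with build mm10. What each did, the version of MACS2, its threshold and which samples it called on were not given in the sources used here. Of counts of 10 or more, even ones made up 58.0 to 61.2% (technical replicate 2) against 84.7 to 87.4% (technical replicate 1). Counting both mates of a pair would give an excess of even counts, but this was not tested. The reads may therefore not be independent fragments. The part of the even counts in differences between technical replicates was not tested.

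Gene spans came from RefSeq (GRCm38.p6), for protein-coding genes of the assembled nuclear chromosomes. The table gives no exons, so exons and introns were not told apart. Strand and start came from the RefSeq promoter table, which lists 6 of the 7 members. Coordinates are printed as deposited. Members, lists and tests were chosen with earlier results of these data known. The text names all members and, of the pathway list, the 3 highest genes and the lowest.

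Tests used edgeR 4.0.16 in R 4.3.3 (filterByExpr, glmQLFit, glmQLFTest, Benjamini-Hochberg over all features, threshold 0.05), with DESeq2 1.42.0 as an alternative. Ends against bodies used offsets for library total and region width. Region tests used TMM. The library was a block because the titles number technical replicates within a CUT&RUN. In the test between libraries, the library was the tested term and the technical replicate the block. Deviations (log2 of CPM plus 0.5) of a library's technical replicates correlated at 0.18 to 0.19. The scripts were tested on simulated data. Summaries used Python 3.11.15. One neighbouring annotation is not reported here.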

Additional observations from a re-analysis of the deposited data

How the results depend on the processing

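The number of genes called for ends against body, 118 with the library as a block, moved with most choices. It was 198 with no replicate block, 294 with DESeq2, 26 and 5 with windows of 2 and 5 kb, 1 in technical replicate 1 alone and 24 in technical replicate 2 alone, and 1 to 28 without 1 library. With gene starts only, an alternative chosen after seeing the data, edgeR called 0 of 4449 genes, with 679 at an unadjusted p under 0.05. The log2 ratio of ends over body ranged from -0.15 (without library 3) to 0.31 for Map2k2 and from -0.0056 (without library 2) to 0.25 for Nf1 when 1 library was left out, and for Nf1 it was -0.47 in technical replicate 1 alone. The Map2k1 ratio was above 0 in all 12 alternatives that could give it, from 0.44 to 1.40. The members in the top 10% of genes, 1 in the main setting, were 0 on regions of 200 bp or wider, 2 over the gene span with 10 kb either side, 2 with regions given to the nearest gene end, and 1 to 2 without 1 library. With CPM summed over the window the count was 1, but the member was Nf1 in place of Map2k1. Where the count was 2, Map2k1 was joined by Nf1 over the gene span. Map2k1 was joined by Nras with the nearest gene end, without library 1 and without library 3. Between technical replicates 71 regions passed, 38 of them higher in technical replicate 2 and 33 lower, against 46 with no replicate block, 46 with no filter and 0 to 18 without 1 library. Without library 2, where edgeR called 0, 819 regions had an unadjusted p under 0.05. With total reads in place of TMM the split was 6 higher and 59 lower, and with DESeq2 14 and 41, while the median log2 over the 27452 tested regions was 0.41 under TMM and -0.22 under total reads. Of 46 gene values recomputed for members under other settings, 36 lay within 1 SD of the main value and 10 did not. The largest moves by ratio were Map2k1 at 41.9 (118 in the main setting) and Mapk3 at 37.0 (59.2) on regions of 200 bp or wider, Mapk3 at 37.0 within 1 kb, Nf1 at 113 (60.6) over the span with 10 kb either side, Map2k2 at 25.3 (54.9) in technical replicate 1 alone, and Nras at 64.0 (97.3) without library 2. Why these counts moved was not tested. Map2k2 could not be fitted in technical replicate 1 alone, nor any member on regions of 200 bp or wider, and DESeq2 gave no adjusted p for Map2k2. Depth limits single regions, most of which held under 50 reads in all.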
